A study of Homo sapiens with 16 samples.

Results

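SLIT ligands, their ROBO receptors and the SRGAP proteins that act behind the receptors were described in SH-SY5Y, a human neuroblastoma cell line, as 9 genes of the 26410 in the deposited expression tables. The members were SLIT1, SLIT2, SLIT3, ROBO1, ROBO2, ROBO3, SRGAP1, SRGAP2 and SRGAP3, and all 9 had reads in all 16 libraries and passed the filter on low values in every comparison. They were chosen by family, with their levels in the 4 groups of the study already known, so the differences between those groups are given here as a description, with standard errors but no p-value or call. Tests are given for clones of the same genotype label and for other genes of the pathway.

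The libraries came from 4 clones of this line, KO11 and KO28 with the label TRPM2 KO, and Scr13 and Scr16 with the label of scrambled control. Of each clone 2 replicates were left untreated and 2 were given doxorubicin, a DNA-damaging anthracycline, at 0.3 µM for 24 h according to the sample labels. The design text gives the dose as 3 µM. The KO clones had received Cas9 with a TRPM2 guide and the Scr clones a scrambled guide. Both received the same donor carrying GFP and puromycin resistance, and puromycin-selected single-cell clones were expanded. Each genotype label therefore rests on 2 clones, and genotype and clone-to-clone differences cannot be told apart beyond that number. The libraries held 10481177 to 25086085 reads on genes (median 16037366.5), and levels are given as normalized CPM, reads scaled to library size.

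TRPM2, the targeted channel, was read without treatment at 1.41 to 2.23 normalized CPM in KO11 and KO28 and at 0 to 0.118 in Scr13 and Scr16 (4 libraries each). After doxorubicin it stood at 0.658 to 1.83 normalized CPM in the KO libraries and at 0.0594 to 1.33 in Scr, the highest Scr value being Scr16 replicate 1. Whole-gene counts thus went against the label in untreated cells (log2 difference 1.47 ± 0.27 SE). TRPM2 passed the filter on low values through the KO libraries, so this is a description without a p-value. The paper describes a deletion at the start of the coding sequence and a frameshift of the rest. Whether the edited sequence was read was not tested. KO below means the libraries labelled TRPM2 KO.

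SLITs are large secreted proteins that bind the immunoglobulin domains of ROBO receptors, which are single-pass membrane proteins. The SRGAPs are GTPase-activating proteins that bind the cytoplasmic part of ROBO and shape the membrane and the actin cytoskeleton. The pathway is best known for repelling commissural axons from the midline and for guiding migrating neurons and neural crest cells, from which neuroblastoma arises. ROBO3 differs from ROBO1 and ROBO2 in its weak binding to SLIT.

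The cells carried most markers of adrenergic neuroblastoma, with 10 or 11 of 12 at 1 normalized CPM or more in each library. Of 12 adrenergic markers, 11 passed the filter on low values. The sum of all 12 was 7998 ± 364 normalized CPM in untreated Scr (SD, n = 4), 8705 ± 290 in Scr with doxorubicin, 8403 ± 453 in untreated KO and 8399 ± 320 in KO with doxorubicin. DBH, which makes noradrenaline, was among the highest of them at 1635 ± 219 normalized CPM in untreated Scr, whereas TH, tyrosine hydroxylase of the same route, did not pass the filter. CHGA was low, with a median of 1.40 normalized CPM over the 16 libraries (0.356 to 26.4). Among the untreated Scr libraries, Scr13 replicate 1 stood apart in markers of mesenchymal neuroblastoma, whose sum was 981 normalized CPM there and 494 to 659 in the other 3.

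The 9 genes lie on 7 chromosomes and most are long. By GENCODE 29 on GRCh38, SLIT1 spans chr10:96998038-97185920, SLIT2 chr4:20253260-20620561, SLIT3 chr5:168661733-169301129, ROBO1 chr3:78597240-79767815, ROBO2 chr3:75906695-77649964, ROBO3 chr11:124865386-124881470, SRGAP1 chr12:63844293-64162221, SRGAP2 chr1:206203345-206464443 and SRGAP3 chr3:8980591-9363053. ROBO3 is the short member at 16.1 kb, shorter than the median of 27.9 kb over 15047 genes. ROBO2 spans 1743.3 kb and ROBO1 1170.6 kb, longer than 99.9% and 99.8% of those genes. MIR218-2, one of the genes for miR-218, lies inside SLIT3 on the same strand and was read at 0 to 1.38 normalized CPM, or 0.0643% of the SLIT3 reads.

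The promoters of the 5 members with the largest log2 differences between groups of genotype or treatment are shown so that the start of each gene can be seen beside its values (RefSeq, GRCh38.p14, 300 bases on the gene's own strand, from 250 before to 50 after the annotated start). They lie at chr10:97185910-97186209, minus strand, for SLIT1, chr4:20251655-20251954, plus strand, for SLIT2, where the window ends before the GENCODE start, chr5:169301090-169301389, minus strand, for SLIT3, chr11:124865182-124865481, plus strand, for ROBO3 and chr3:9249597-9249896, minus strand, for SRGAP3, where the window starts inside the longest annotated gene model. Capitals mark a GC box (GGGCGG, either strand), the letters TTTGAA (either strand), known as the cell cycle homology region in promoters of cell-cycle genes, and a TATA box (TATAAA, either strand).
SLIT1: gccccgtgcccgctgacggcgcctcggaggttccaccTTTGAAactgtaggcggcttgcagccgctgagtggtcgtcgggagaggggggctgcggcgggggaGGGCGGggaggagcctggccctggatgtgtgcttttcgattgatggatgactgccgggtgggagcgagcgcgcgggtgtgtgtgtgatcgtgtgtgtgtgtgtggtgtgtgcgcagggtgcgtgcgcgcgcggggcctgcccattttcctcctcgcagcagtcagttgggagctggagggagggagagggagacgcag
SLIT2: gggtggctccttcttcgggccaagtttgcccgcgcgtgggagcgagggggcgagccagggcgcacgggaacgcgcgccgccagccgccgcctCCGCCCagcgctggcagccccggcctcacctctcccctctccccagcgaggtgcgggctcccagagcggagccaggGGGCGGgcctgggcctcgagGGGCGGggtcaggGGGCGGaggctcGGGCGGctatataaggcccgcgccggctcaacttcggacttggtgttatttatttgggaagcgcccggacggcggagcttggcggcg
SLIT3: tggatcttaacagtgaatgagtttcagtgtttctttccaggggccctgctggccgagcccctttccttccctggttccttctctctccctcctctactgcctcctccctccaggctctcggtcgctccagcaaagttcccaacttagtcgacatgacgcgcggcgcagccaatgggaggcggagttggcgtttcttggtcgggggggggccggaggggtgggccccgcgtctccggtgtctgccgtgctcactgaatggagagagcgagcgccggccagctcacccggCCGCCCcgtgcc
ROBO3: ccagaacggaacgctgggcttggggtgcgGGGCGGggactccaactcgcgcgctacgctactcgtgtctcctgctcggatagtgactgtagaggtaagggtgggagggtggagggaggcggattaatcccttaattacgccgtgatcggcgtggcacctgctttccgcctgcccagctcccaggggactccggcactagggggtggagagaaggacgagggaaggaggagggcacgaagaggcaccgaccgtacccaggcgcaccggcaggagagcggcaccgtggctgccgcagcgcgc
SRGAP3: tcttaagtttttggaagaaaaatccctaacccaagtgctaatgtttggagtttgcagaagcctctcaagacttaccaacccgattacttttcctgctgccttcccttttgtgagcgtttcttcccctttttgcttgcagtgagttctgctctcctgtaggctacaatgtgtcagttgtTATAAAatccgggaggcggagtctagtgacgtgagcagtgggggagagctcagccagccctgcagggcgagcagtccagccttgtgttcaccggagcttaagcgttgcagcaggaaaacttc
SLIT2 held 5 GC boxes and SLIT1, SLIT3 and ROBO3 each held 1, and 45% of 35116 promoter windows hold at least 1. SRGAP3 held none and was the member with the exact letters TATAAA, which 11.5% of windows hold. SLIT2 holds the close letters tatataag just after its last GC box, which this search neither matches nor marks. SRGAP3 is therefore not shown to differ from SLIT2 in having a TATA box. The GC content of the SRGAP3 window was 49.7%, against 68% for SLIT1, 74.3% for SLIT2, 64.7% for SLIT3 and 66.7% for ROBO3. SLIT1 and ROBO1 each held 1 TTTGAA match (15.2% of windows). No window of the 9 members held an E2F site (TTTNGCGC, either strand, 1.79% of windows) or a p53 half-site (6.63%), which says only that these letters are not in these windows.

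SLIT3 was the most abundant ligand in every group. Per kb of exon sequence, SLIT3 stood at 64.7 ± 12.8 normalized CPM per kb over the 16 libraries (SD), SLIT1 at 9.89 ± 2.17 and SLIT2 at 0.319 ± 0.185. As a share of the summed SLIT level per kb, SLIT3 made up 86.3% ± 1.72, SLIT1 13.2% ± 1.68 and SLIT2 0.471% ± 0.335. Among the receptors ROBO1 was the most abundant per kb (5.50 ± 0.692), followed by ROBO3 (2.76 ± 0.725) and ROBO2 (0.651 ± 0.208). Among the SRGAPs SRGAP2 was the most abundant per kb (4.25 ± 0.479). Over the 16 libraries SRGAP3 stood at 1.00 ± 0.484 and SRGAP1 at 0.800 ± 0.200, but their order depended on treatment. Without treatment SRGAP1 had the higher mean per kb (0.765 against 0.579 in Scr, 0.989 against 0.564 in KO). After doxorubicin SRGAP3 had the higher mean (1.31 against 0.620 in Scr, 1.54 against 0.826 in KO). Over all 9, the ranges of neighbours in the order did not overlap between SLIT3 and SLIT1 or between SLIT1 and ROBO1, and overlapped for every other neighbouring pair.

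**Figure D1:**
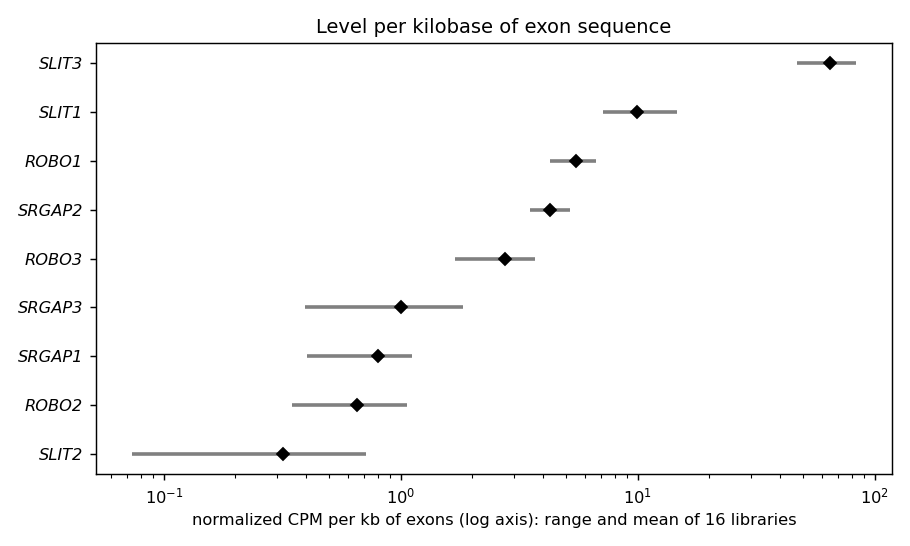
Level of each gene per kilobase of its exons, in normalized CPM per kb on a log axis; the diamond is the mean and the bar the range over the 16 libraries. SLIT3 sits alone at the top (46.9 to 83.5) and SLIT2 is lowest (0.0734 to 0.714).

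SLIT1 had opposite directions after doxorubicin in both genotypes. In Scr it stood at 82.5 and 102 normalized CPM in untreated Scr13 and 79.2 and 89.3 in untreated Scr16, and at 125 and 108 in Scr13 and 133 and 103 in Scr16 after doxorubicin. In KO it stood at 85.1 and 77.5 in untreated KO11 and 89.6 and 90.4 in untreated KO28, and at 70.6 and 69.2 in KO11 and 71.2 and 65.0 in KO28 after doxorubicin. Untreated KO and Scr libraries overlapped, whereas after doxorubicin all 4 KO libraries lay below all 4 Scr libraries. The doxorubicin mean was 1.33 times the untreated mean in Scr and 0.806 times in KO, and within each genotype the treated and untreated libraries did not overlap. Both clones of a label went the same way, with ratios of 1.27 in Scr13, 1.40 in Scr16, 0.860 in KO11 and 0.757 in KO28. On the log2(normalized CPM + 1) scale the KO minus Scr difference was -0.04 ± 0.09 (SE) without treatment and -0.75 ± 0.09 after doxorubicin, and the difference between the responses was -0.71 ± 0.13.

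SLIT3 was lower in KO than in Scr with and without doxorubicin. Its Scr libraries held 1111 and 1022 normalized CPM in untreated Scr13, 931 and 1125 in untreated Scr16, 1024 and 1088 in treated Scr13, and 1191 and 1189 in treated Scr16. Its KO libraries held 729 and 782 in untreated KO11, 785 and 814 in untreated KO28, 724 and 668 in treated KO11, and 790 and 786 in treated KO28. All 8 KO libraries lay below all 8 Scr libraries. The KO mean was 0.742 times the Scr mean without treatment and 0.661 times after doxorubicin (log2 differences -0.43 ± 0.07 and -0.60 ± 0.08). Doxorubicin against untreated gave 0.10 ± 0.08 in Scr and -0.07 ± 0.07 in KO, and the libraries of both treatments overlapped in each genotype.

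SLIT2, the lowest member, was read with 12 to 106 reads per library, so its values carry the largest counting error of the 9. The Scr libraries stood at 2.91 and 2.30 normalized CPM in untreated Scr13, 1.78 and 1.25 in untreated Scr16, 0.713 and 1.64 in treated Scr13 and 3.42 and 1.36 in treated Scr16. The KO libraries stood at 3.31 and 2.29 in untreated KO11, 2.48 and 3.87 in untreated KO28, 6.33 and 5.23 in treated KO11 and 6.93 and 3.77 in treated KO28. After doxorubicin the lowest KO library lay above the highest Scr library, by a small margin, and without treatment the groups overlapped. The KO mean after doxorubicin was 3.12 times that of Scr (5.57 ± 1.39 against 1.78 ± 1.16, SD, n = 4), and 1.30 ± 0.29 on the log2 scale, which understates the change of a gene this low. SLIT2 thus ran against SLIT1 and SLIT3, which were both lower in KO after doxorubicin.

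**Figure D2:**
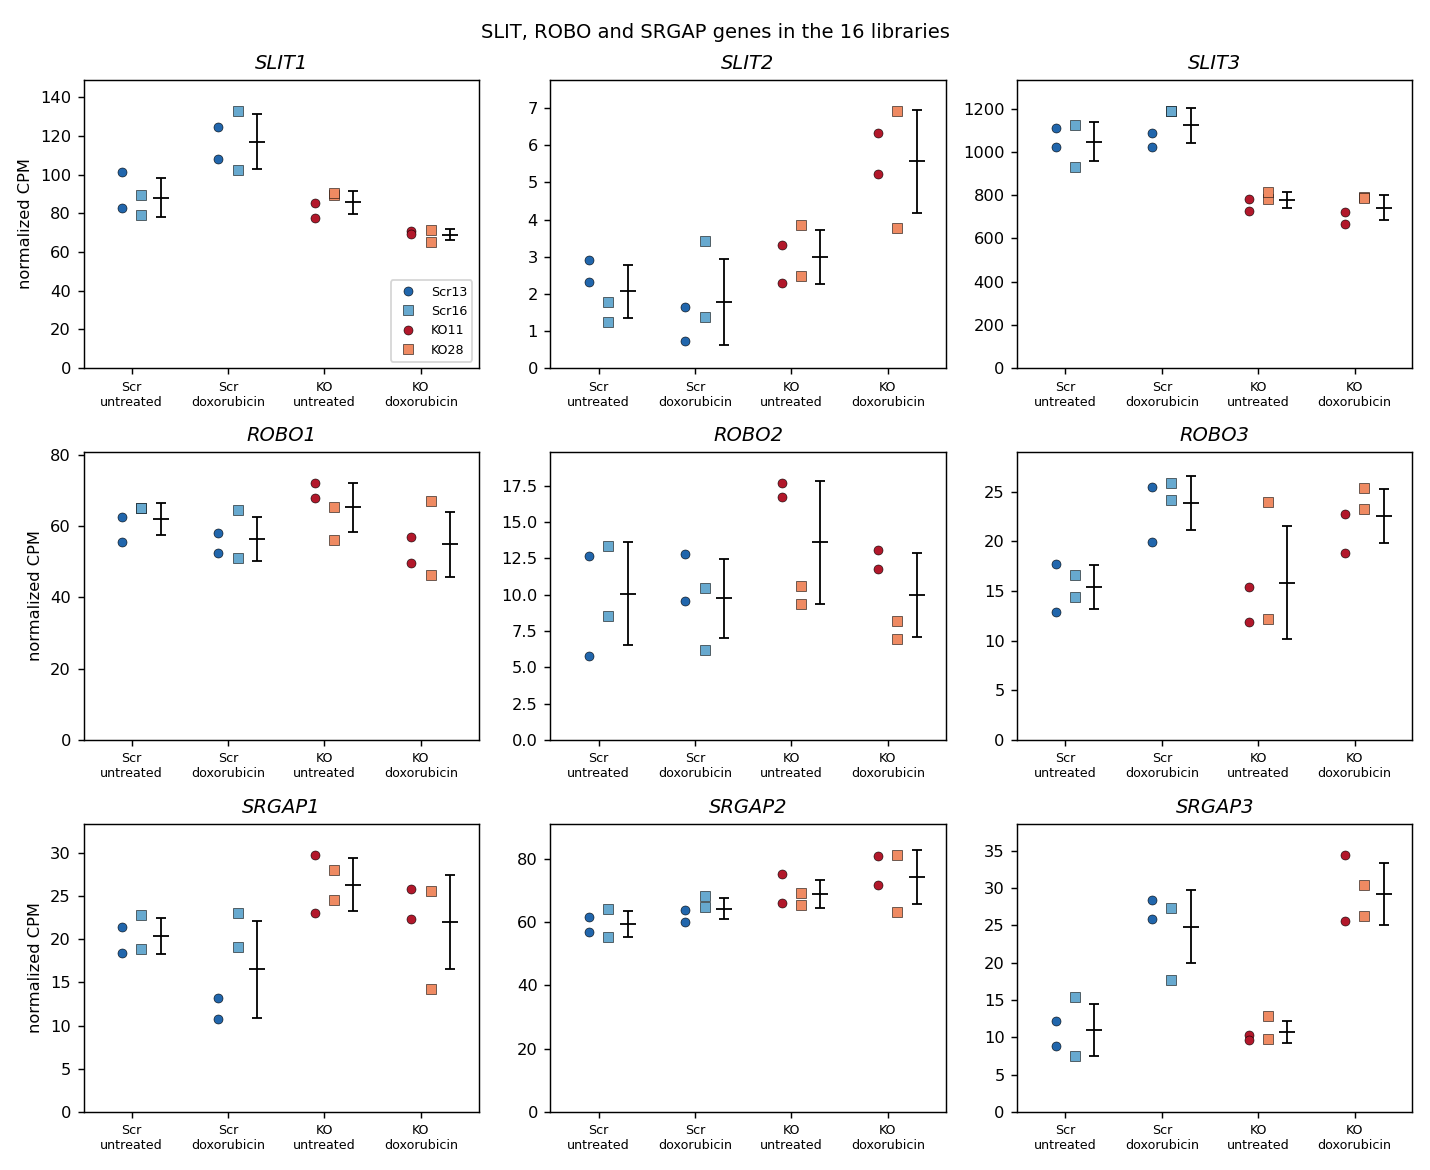
Normalized CPM of each member (vertical axes from 0, scaled per gene) in the 4 groups on the horizontal axes; each point is a library, coloured by genotype and shaped by clone, and the black bar is the mean ± SD of the 4 libraries. SLIT1 in treated KO (65.0 to 71.2) lies below treated Scr (103 to 133), and SRGAP3 is higher after doxorubicin in both genotypes.

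ROBO1 and ROBO2, the receptors that bind SLIT, overlapped between the groups of 4 libraries in each comparison of genotype or treatment. ROBO1 ranged from 46.3 to 72.2 normalized CPM over the 16 libraries, with means of 62.1 ± 4.51 in untreated Scr, 56.5 ± 6.19 in treated Scr, 65.4 ± 6.88 in untreated KO and 55.0 ± 9.13 in treated KO (SD, n = 4). Doxorubicin against untreated gave log2 differences for ROBO1 of -0.14 ± 0.09 in Scr and -0.25 ± 0.11 in KO. With each library left out in turn these ran from -0.20 to -0.06 in Scr and from -0.39 to -0.18 in KO. ROBO2 ranged from 5.79 to 17.7. It stood at 16.8 and 17.7 normalized CPM in untreated KO11 and 13.1 and 11.8 in treated KO11, and at 10.6 and 9.34 in untreated KO28 and 8.18 and 6.94 after treatment. ROBO2 was thus lower after doxorubicin in both KO clones, without overlap inside either, at 0.721 and 0.758 times the untreated mean. The KO groups overlapped because treated KO11 lay above untreated KO28. With the clone as a covariate the ROBO2 difference was -0.40 ± 0.17 in KO and -0.02 ± 0.25 in Scr. The Scr clones went opposite ways, with ratios of 1.21 in Scr13 and 0.761 in Scr16.

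ROBO3 was higher after doxorubicin. In Scr it stood at 17.7 and 12.9 normalized CPM in untreated Scr13, 16.6 and 14.4 in untreated Scr16, 19.9 and 25.5 in treated Scr13 and 24.1 and 25.9 in treated Scr16. In KO it stood at 11.8 and 15.4 in untreated KO11, 12.2 and 24.0 in untreated KO28, 22.8 and 18.8 in treated KO11 and 23.2 and 25.4 in treated KO28. Treated and untreated Scr libraries did not overlap, and in KO they overlapped through untreated KO28 replicate 2. The doxorubicin mean was 1.55 times the untreated mean in Scr and 1.42 times in KO (log2 differences 0.60 ± 0.15 and 0.53 ± 0.17), and ROBO3 made up 37.1% ± 4.90 of the summed ROBO level per kb in treated Scr against 25.7% ± 2.53 in untreated Scr.

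SRGAP3, which lowers Rac activity behind ROBO, had the largest doxorubicin difference of the 9. Untreated libraries stood at 12.2 and 8.81 normalized CPM in Scr13, 7.49 and 15.3 in Scr16, 10.4 and 9.70 in KO11 and 9.79 and 12.8 in KO28. Treated libraries stood at 28.4 and 25.9 in Scr13, 27.4 and 17.7 in Scr16, 34.5 and 25.6 in KO11 and 30.5 and 26.3 in KO28. All 8 treated libraries lay above all 8 untreated ones, and KO and Scr overlapped within each treatment. The doxorubicin mean was 2.27 times the untreated mean in Scr and 2.74 times in KO (log2 differences 1.14 ± 0.20 and 1.37 ± 0.15). It was higher in every clone, by ratios of 3.00 in KO11, 2.51 in KO28, 2.59 in Scr13 and 1.97 in Scr16.

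SRGAP1 and SRGAP2 were somewhat higher in KO. Without treatment SRGAP1 stood at 23.1 to 29.8 normalized CPM in KO and 18.4 to 22.8 in Scr, and SRGAP2 at 65.4 to 75.2 in KO and 55.1 to 64.0 in Scr, with no overlap for either gene. After doxorubicin both overlapped. Without Scr13 the treated SRGAP1 difference was 0.03 and without Scr16 it was 0.80, on the log2 scale, against 0.41 ± 0.21 with both clones. SRGAP2 shares near-identical sequence with SRGAP2B (3.96 to 16.3 normalized CPM) and SRGAP2C (5.67 to 10.5), so its counts are uncertain. SRGAP3 overlaps THUMPD3 on the opposite strand (51.3 to 77.5 normalized CPM) and THUMPD3-AS1 on its own (5.50 to 13.9). SRGAP2 overlaps FAM72A on the opposite strand (1.82 to 6.08 normalized CPM, 6.0% of the SRGAP2 reads). The pseudogene AC026877.1 lies inside ROBO2 on the same strand (0.538 to 4.09 normalized CPM, 11.5% of the ROBO2 reads), so ROBO2 counts carry a like uncertainty. Whether the counting used strand is not given in the sources used here.

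Across all genes, the fits called 4.84% of 14364 tested genes between untreated KO and Scr, 8.69% of 14572 after doxorubicin, 12.3% of 14378 for doxorubicin in Scr and 19.6% of 14513 for doxorubicin in KO (limma, Benjamini-Hochberg adjusted p under 0.05). The difference between the doxorubicin responses was called for 4 of 15325 genes (0.0261%). Groups of 4 did not overlap for 9.29%, 13.2%, 17.1% and 19.8% of all genes in the same 4 comparisons. The members without overlap were SLIT3, SRGAP1 and SRGAP2 in the first, SLIT1, SLIT2 and SLIT3 in the second, SLIT1, ROBO3 and SRGAP3 in the third, and SLIT1 and SRGAP3 in the fourth. Nothing is read from these counts, because the members were chosen with the levels they come from already known.

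When each library was left out in turn, the SLIT1 difference between responses ran from -0.78 to -0.62 on the log2 scale, and the SLIT2 difference between treated KO and Scr from 1.09 to 1.55. SLIT3 ran from -0.48 to -0.39 between untreated genotypes and from -0.64 to -0.55 after doxorubicin. For doxorubicin, ROBO3 ran from 0.53 to 0.70 in Scr and from 0.36 to 0.72 in KO, and SRGAP3 from 0.98 to 1.36 in Scr and from 1.27 to 1.46 in KO.

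**Figure D3:**
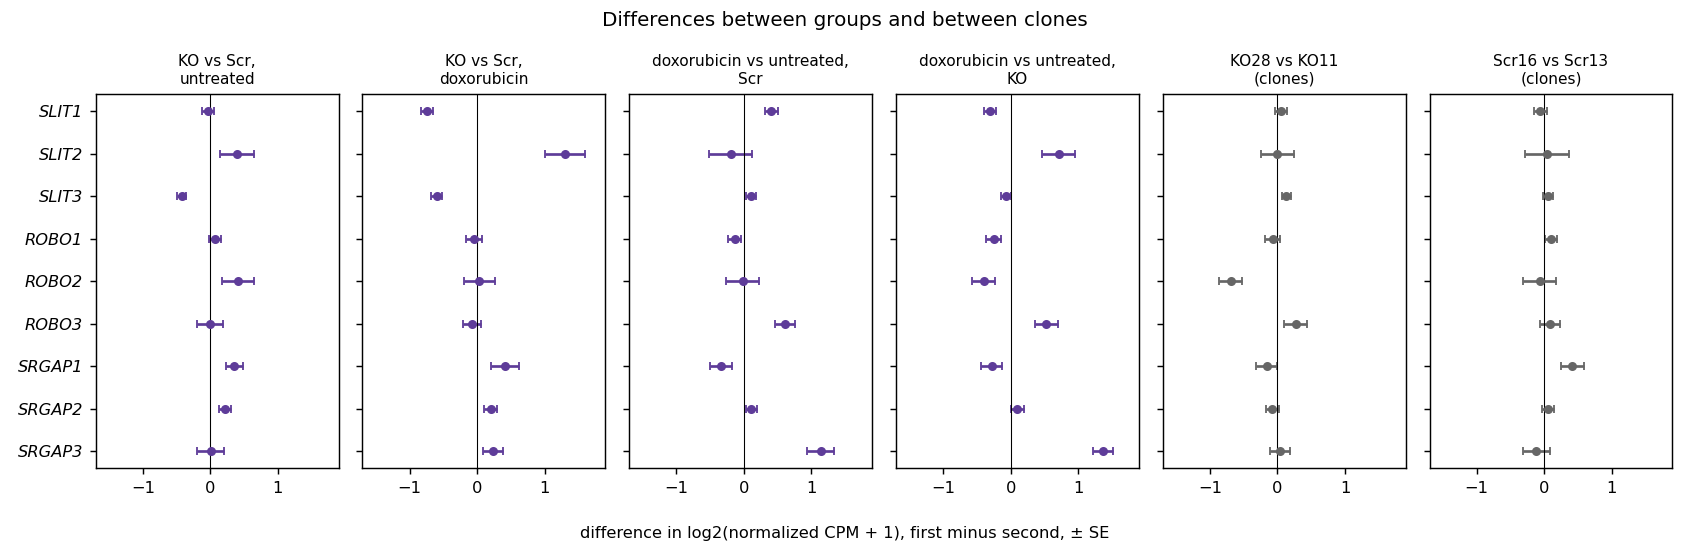
Difference in log2(normalized CPM + 1), first group minus second, ± SE from the fit over all genes, for each member in 4 comparisons of groups and, in grey, 2 comparisons of clones. SRGAP3 stands at 1.14 and 1.37 for doxorubicin, and ROBO2 at -0.69 between the KO clones.

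Clones of the same label, which the choice of members did not use, were tested. Between KO28 and KO11, 20 of 14513 genes were called (0.138%), and between Scr16 and Scr13, 5 of 14378 (0.0348%). No member was called in either by limma or edgeR, and 1 (ROBO2, KO clones) by DESeq2, which called 43 of all genes there (0.296%). At an unadjusted p under 0.05 the limma fits had 1 of 9 members in each, ROBO2 and SRGAP1, beside 10.1% and 7.02% of all genes. ROBO2 was lower in KO28 (6.94 to 10.6 normalized CPM) than in KO11 (11.8 to 17.7), with no overlap and a log2 difference of -0.69 ± 0.17 (limma adjusted p = 0.127, 3.1% of genes not overlapping). DESeq2 on the recovered reads gave adjusted p = 0.0148 for this difference. Between Scr16 and Scr13 the largest member difference was that of SRGAP1, 0.42 ± 0.17 (limma adjusted p = 0.709). All 4 KO28 libraries also lay above all 4 KO11 libraries for SLIT3 (785 to 814 against 668 to 782 normalized CPM), with a log2 difference of 0.13 ± 0.07 (limma adjusted p = 0.541). Between Scr16 and Scr13 SLIT3 overlapped (0.06 ± 0.08).

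Markers of another neuroblastoma state moved with the genotype label. Of 14 mesenchymal markers listed, 12 were in the tables, and their sum was 691 ± 206 normalized CPM in untreated Scr, 653 ± 123 in treated Scr, 1090 ± 129 in untreated KO and 1150 ± 156 in treated KO (SD, n = 4). The untreated sums overlapped, with KO11 replicate 2 at 928 and Scr13 replicate 1 at 981. After doxorubicin they did not (956 to 1321 in KO, 522 to 806 in Scr). VIM was the most abundant in all KO libraries and TWIST1 in 7 of 8 Scr libraries. In Scr13 untreated replicate 1 it was VIM. Of 12 tested without treatment 8 were called, 7 higher and 1 lower in KO (limma, background 4.84%), and of 11 tested after doxorubicin 9 were called, 8 higher and 1 lower (background 8.69%). LUM had the largest difference in both (2.45 ± 0.28 and 3.24 ± 0.25), and TWIST1 was the lower marker. The markers also differed between clones of the same label. FN1 was called higher in KO28 than in KO11 (limma, background 0.138%), and 11 of 12 markers had a difference above 0 there (median log2 difference 0.18). Between Scr16 and Scr13 none was called, with a median log2 difference of 0.42 over 9 tested. Some markers passed the filter on low values through the KO libraries. In treated Scr LUM stood at 0.190 to 0.631 normalized CPM and DCN at 0.297 to 0.760, and among Scr libraries alone 9 of the 12 passed. The counts of calls thus lean towards markers higher in KO and are a description. These are bulk samples, so fewer cells of a type and less RNA per cell cannot be told apart, and the part of these markers in the SLIT differences was not tested. Without Scr13 untreated replicate 1 the untreated SLIT3 difference was -0.40, and the doxorubicin differences in Scr were 0.36 for SLIT1, 0.70 for ROBO3 and 1.19 for SRGAP3.

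Other genes of the pathway were tested in all comparisons. They were 14 partners found in the tables (other ligands, co-receptors and proteins that act with ROBO), 29 effectors (signalling and actin proteins behind the receptor) and 6 regulators of SLIT or ROBO expression. This list was chosen with earlier results of these data known. Its calls and p-values, here and below, are therefore not independent of the data. Between genotypes they also treat libraries of the same clone as independent. Without treatment 4 of 46 tested were called, all higher in KO (background 4.84%), with a median log2 difference of 0.05 beside -0.01 over all genes. PRKCA, protein kinase C alpha, stood at 665 ± 50.5 normalized CPM in KO and 246 ± 13.4 in Scr, a log2 difference of 1.43 ± 0.07 (limma adjusted p = 1.1e-10). FLRT3, a membrane protein that binds ROBO1, stood at 4.04 ± 1.49 and 0.991 ± 0.449 (1.32 ± 0.28). With 0.345 to 1.31 normalized CPM in untreated Scr, FLRT3 passed the filter on low values through the KO libraries. Its difference is therefore a description, given without a p-value, although the count includes it. NELL2, a secreted ligand of ROBO3, stood at 58.5 ± 7.73 and 39.7 ± 10.3 (0.58 ± 0.14, adjusted p = 0.0203). CDH2, N-cadherin, was called as well (0.31 ± 0.08). PRKCA and FLRT3 were called in all 8 fits that each left out a library. Without a filter on low values PRKCA was the 1 pathway gene called. With at least 10 reads required in every library the calls were CDH2, NELL2 and PRKCA. NELL2 was called in 5 of 8 and CDH2 in 3 of 8, neither of them without KO11 replicate 1, Scr16 replicate 2 or KO28 replicate 1, and CDH2 also not without KO11 replicate 2 or Scr13 replicate 2. With KO11 or Scr13 left out whole, PRKCA was the 1 pathway gene called.

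After doxorubicin 8 of 46 were called between genotypes, 6 higher and 2 lower in KO (background 8.69%; median 0.05 beside 0.01 over all genes). PRKCA and FLRT3 were again the largest, at 1.52 ± 0.07 (limma adjusted p = 6.1e-12) and 1.34 ± 0.33. FLRT3 stood at 0 to 1.30 normalized CPM in treated Scr and again passed the filter through the KO libraries, so its difference is a description. It was not among the calls without a filter or with at least 10 reads required in every library. Those lower in KO were ARHGAP4, a relative of the SRGAPs (-0.58 ± 0.15, adjusted p = 0.0134), and SDC2, a syndecan carrying heparan sulfate, which SLIT and ROBO bind (-0.52 ± 0.10, adjusted p = 0.00114). SDC2 stood at 62.6 ± 1.82 normalized CPM in treated KO and 90.8 ± 13.3 in treated Scr. Leaving out clone KO11 left 3 of these calls (PRKCA, CDH2 and SDC2), with 2 libraries in the KO arm. FLRT3 was not called without treated KO11 replicate 1.

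Of the 14 partners, 3 were called for doxorubicin in Scr, 2 higher and 1 lower, and 6 in KO, 4 higher and 2 lower. Of the 29 effectors, 4 were called in Scr, 2 in each direction, and 3 in KO, 1 higher and 2 lower. In Scr 9 of 46 pathway genes were called, 4 higher and 5 lower (background 12.3%; median -0.01 beside -0.01 over all genes), and in KO 11 of 47, 5 higher and 6 lower (background 19.6%; median -0.04 beside 0.02). SDC1 rose from 134 ± 10.2 to 196 ± 30.2 normalized CPM in Scr (0.54 ± 0.08, limma adjusted p = 0.000236) and from 122 ± 7.48 to 234 ± 11.7 in KO (0.93 ± 0.07, adjusted p = 3.0e-10). SDC1 carries heparan sulfate, as do SDC2, SDC3, SDC4 and GPC1, and it was called in each of the 8 fits of either genotype that left out a library. SDC4 rose by 0.54 ± 0.17 in Scr and 0.47 ± 0.15 in KO, and was called in 3 of the 8 fits in each. In KO SDC3 rose by 0.32 ± 0.08 (limma adjusted p = 0.0052), the glypican GPC1 rose by 0.54 ± 0.09 (adjusted p = 0.000115) and SDC2 decreased from a mean of 93.9 to 62.6 normalized CPM (-0.57 ± 0.09, adjusted p = 6.0e-05).

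Among the genes that decreased with doxorubicin, TSPAN13 (-0.71 ± 0.22, limma adjusted p = 0.0379) and PFN2, a profilin that feeds actin growth (-0.42 ± 0.07, adjusted p = 0.000448), had the largest differences in Scr. PLXNA1, a semaphorin receptor reported to bind SLIT fragments, decreased in KO (-0.44 ± 0.07, adjusted p = 4.3e-05). EZH2 and ISL1, of the regulators, decreased in both genotypes, with differences for EZH2 of -0.29 ± 0.08 in Scr and -0.39 ± 0.09 in KO. Leaving out each library in turn gave 3 to 6 pathway calls for doxorubicin in Scr and 10 to 12 in KO. Without Scr13 untreated replicate 2 or treated replicate 1, those in Scr were EVL, SDC1 and PFN2. PFN2 was called in all 8 of these fits in Scr, EZH2 in 4, and TSPAN13 and ISL1 in 2 each, whereas EZH2, ISL1, PLXNA1, GPC1, SDC2 and SDC3 were called in all 8 in KO. None of 47 was called for a difference between the doxorubicin responses by limma or by edgeR, and 1 (EVL) by DESeq2, which called 58 of 15325 genes (0.378%). At an unadjusted p under 0.05 limma had 6 of the 47, beside 8.31% of all genes. SDC2 was called by limma without Scr13 untreated replicate 1. The responses past the threshold in KO alone are thus not shown to differ from those in Scr.

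**Figure D4:**
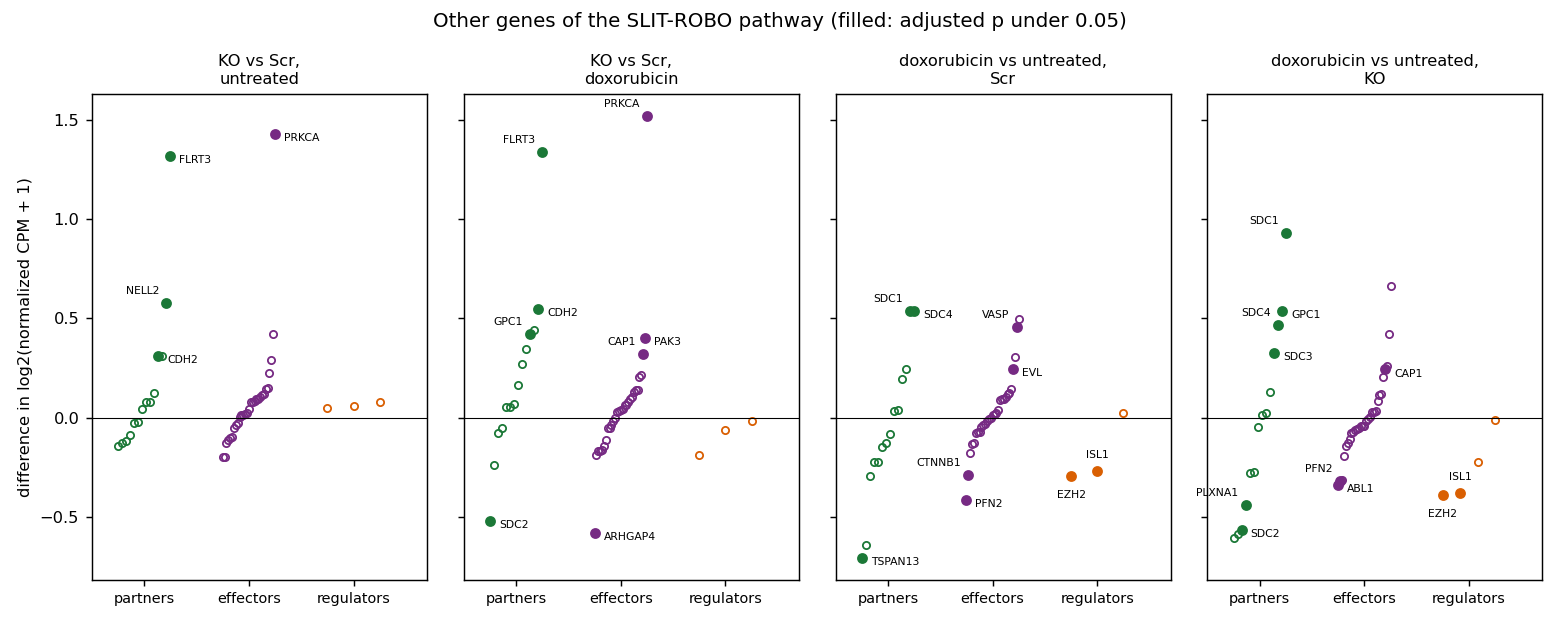
Difference in log2(normalized CPM + 1) for the other pathway genes in 4 comparisons, one point per gene in increasing order within partners, effectors and regulators on the horizontal axis; filled, named points had an adjusted p under 0.05. PRKCA (1.43 and 1.52) and FLRT3 (1.32 and 1.34) lead between genotypes, and SDC1 (0.54 and 0.93) after doxorubicin.

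SLIT2 had the widest range of the members over the 16 libraries, 2.21 on the log2(normalized CPM + 1) scale. The genes whose levels followed it most closely were TRIM5 (Pearson's r = 0.862), THSD4 (0.853), ZNF528 (0.850), CCL2 (0.848) and CRIM1 (0.848), of 15324 compared over 16 libraries. The libraries share clones and treatments, so this is a description of likeness.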

How the data were processed

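RNA from SH-SY5Y clones was sequenced by the authors from poly(A) libraries made with a directional kit, and HISAT2 2.1.0, HTSeq and edgeR are named in their processing notes, with GRCh38. The deposited tables hold normalized CPM as a signal (counts divided by scaled library sizes), from which whole reads were recovered for 100.0% of values (tolerance 0.01). The authors' log2 fold changes, p-values and other scores were also deposited and were not used. Members, lists and tests were chosen with earlier results of these data known. Genes with at least 1 CPM in at least 4 of the fitted libraries were tested with limma 3.58.1 (R 4.3.3) on log2(CPM + 1), with Benjamini-Hochberg adjustment over all tested genes at 0.05 and the clone as a covariate for doxorubicin. edgeR 4.0.16 and DESeq2 1.42.0 on recovered reads were alternatives. Genes named were all members, TRPM2, the genes most like the member of widest range and some of the overlapping genes. Per comparison, the 2 largest called differences in each direction among all other pathway genes together were also named. NELL2, CDH2, SDC3, EZH2, ISL1 and EVL, and the markers named out of the fixed lists, were picked after their values were seen. A count of 0 allowed 0.118 to 0.285 CPM (3 reads), for counting error only. Between genotypes the fits had no clone term. Their p-values treat the 4 libraries of 2 clones per label as independent, although libraries of the same clone are not. The p-values therefore do not measure the spread between clones. For doxorubicin, the difference between responses and the pairs of clones, the p-values measure the spread between libraries within clones. ROBO4, PRRX1 and POSTN were not analysed here.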

Additional observations from a re-analysis of the deposited data

Results flagged for a closer look

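The doxorubicin response of SLIT1 went opposite ways in the labelled genotypes. Each of the 4 treated Scr libraries lay above the untreated mean of its own clone and each of the 4 treated KO libraries below it, and the difference between the responses was -0.71 on the log2(normalized CPM + 1) scale. Because SLIT1 was among the genes chosen with these levels known, the difference is a description, and no test of it is used here. No single library stood apart from the other 3 of its group in the 36 groups of members examined, of which chance flags about 1 in 20.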

How the results depend on the processing

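Calls across all genes numbered 508 to 678 when each library was left out in turn between untreated KO and Scr (695 with all), 814 to 1314 after doxorubicin (1266), 1100 to 1739 for doxorubicin in Scr (1774), 2049 to 2903 in KO (2846), 1 to 19 for the difference between responses (4), 3 to 91 between KO clones (20) and 1 to 32 between Scr clones (5). Without a filter on low values the counts were 368 between untreated genotypes, 831 for doxorubicin in Scr, 2 for the difference between responses, and 0 for both pairs of clones. Leaving out a clone gave 330 without Scr13 and 327 without Scr16 for untreated genotypes, and 510 without KO11 and 575 without KO28 after doxorubicin. edgeR gave 10, 10 and 2 for the difference between responses, the KO clones and the Scr clones, and DESeq2 gave 58 and 43 for the first and second of these. With the replicate number within each clone as a block, the difference between responses had 22 calls. Doxorubicin then had 2129 calls in Scr and 2905 in KO. Deviations of same-numbered libraries correlated by -0.025 to 0.0865 between treatments of the same clone and by -0.10 to 0.12 between clones. Pairing by number is thus not shown, and these weak correlations cannot exclude it. The pathway genes called ranged from 1 to 4, 3 to 11, 2 to 12 and 9 to 14 over the alternatives in the first 4 comparisons. Between KO clones, SLIT2 reversed from -0.0036 to 0.028 with edgeR and 0.030 with DESeq2, ROBO2 was past the threshold with DESeq2 (-0.75), and single left-out libraries gave -0.13 to 0.17 for SLIT2, -0.053 to 0.14 for SRGAP3, -0.20 to 0.0041 for ROBO1 and -0.29 to 0.035 for SRGAP1. Between Scr clones they gave -0.14 to 0.015 for SLIT1, -0.25 to 0.21 for SLIT2, -0.34 to 0.14 for ROBO2 and -0.34 to 0.036 for SRGAP3. The causes were not tested.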

Other observations

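Chosen after its values were seen, SRGAP3 had close companions across the 16 libraries. PLXNB3, a plexin receptor for semaphorins, followed it most closely (Pearson's r = 0.965 over 15324 genes), followed by DOCK6 (0.951), NRBP2 (0.950), PLK3 (0.946) and LRP10 (0.945). All 8 treated libraries were above all 8 untreated ones for SRGAP3, so these values describe a shared difference between treatments in libraries that share clones.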
